A study of Saccharomyces cerevisiae with 3 samples.

Results

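The first 650 nucleotides of the yeast 25S rRNA, approximately domain I together with expansion segment ES7, were examined in PAR-CRAC libraries of Get4-HTP and WT cells. The region was defined by position, although earlier results of these data were known when it was chosen. It consists of nucleotides 1 to 650 of RDN25-2 (YNCL0021C, chromosome XII), counted from the 5′ end of 25S as listed in the deposited files. It makes up 19.5% of the 3332 nucleotides of 25S that remain after the h46/h47 stretch of domain III is left out. It was left out so that it did not set the scale of the shares. All 650 nucleotides had hits in all 3 libraries, and 163 of them are T, the only base at which substitutions were listed.

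The study asked where Get4 touches the ribosome. Get4 is a subunit of Get4/5, a complex of the GET pathway, which delivers tail-anchored proteins to the ER. Get4-HTP 1 and Get4-HTP 2 came from BY4741 cells in which the genomic copy of Get4 carries a C-terminal His-TEV-ProtA tag (HTP-tag), and WT came from BY4741 without a tag. Cells of both strains had grown with 4-thiouracil in medium with little uracil and were irradiated at 365 nm. PAR-CRAC sequences the RNA fragments that copurify with the crosslinked, tagged protein, and a T-C substitution in a read is taken as the mark of a crosslinked 4-thiouridine. WT cells have no tagged protein, so WT reads are RNA recovered without one and serve as the background. A substitution therefore does not by itself show a contact of Get4. The only WT library was amplified with more PCR cycles than the Get4-HTP libraries, so strain and amplification cannot be told apart. The headers of Get4-HTP 1 and WT carry the same run code and that of Get4-HTP 2 another.

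Domain I forms the start of the 25S rRNA and pairs with the 5.8S rRNA. Parts of it lie on the solvent side of the 60S subunit near the polypeptide tunnel exit, in the neighborhood of the ribosomal proteins Rpl26 and Rpl35. ES7 is one of the large expansion segments, stretches that eukaryotic 25S-type rRNA carries beyond the core shared with bacteria.

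The 6 stretches of at least 10 nucleotides in which hits exceeded 20% of the highest value of the region in at least 1 library are shown in DNA letters, because they hold most of the coverage. Each reads from 5′ to 3′, and a capital marks a T that is listed beside the sequence.
Nucleotides 3 to 44, with T9 and T44: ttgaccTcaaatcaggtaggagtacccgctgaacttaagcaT
Nucleotides 48 to 129, with T78, T83, T84, T87 and T97: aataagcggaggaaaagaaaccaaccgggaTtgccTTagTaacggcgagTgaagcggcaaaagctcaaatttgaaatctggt
Nucleotides 277 to 320, with T298: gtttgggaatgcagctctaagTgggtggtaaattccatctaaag
The 42 nucleotides from nucleotide 394, with T413: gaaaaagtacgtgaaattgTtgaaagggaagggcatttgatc
Nucleotides 440 to 480, with T456: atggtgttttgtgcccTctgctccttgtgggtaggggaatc
Nucleotides 554 to 563, with T558: attaTagcct

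The files listed 614992 mapped reads for Get4-HTP 1, 933943 for Get4-HTP 2 and 107659 for WT, with 19270 reads on 25S in Get4-HTP 1, 21411 in Get4-HTP 2 and 8571 in WT. Nearly every 25S read carried exactly 1 substitution (as many substitutions as 99.97% of the reads in Get4-HTP 1, 99.995% in Get4-HTP 2 and 99.95% in WT), so substitutions stand in for reads where a counting interval is given. Hits count the reads over a nucleotide, and neighboring nucleotides share most of their reads. There was 1 WT library, and differences from WT therefore have no replicate check on the WT side and no p value. A mean ± SD stands for both Get4-HTP libraries (n = 2).

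The region was less covered than its length would give in all 3 libraries. It received 39716 hits with 1173 substitutions in Get4-HTP 1, 30573 hits with 913 substitutions in Get4-HTP 2, and 37288 hits with 1045 substitutions in WT. It held 9.14% of 25S hits in Get4-HTP 1, 11.7% in Get4-HTP 2 and 14.9% in WT, against 19.5% of the length. The Get4-HTP mean was 10.4% ± 1.82, so WT lay above it by more than that SD. Relative to WT the share was 0.612 for Get4-HTP 1 and 0.784 for Get4-HTP 2.

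Counted as substitutions, the region held 8.49% of those in 25S in Get4-HTP 1 (8.03% to 8.96%, Wilson 95% interval), 12.1% in Get4-HTP 2 (11.4% to 12.9%) and 12.9% in WT (12.2% to 13.6%). On this scale the intervals of Get4-HTP 2 and WT overlapped, and only Get4-HTP 1 lay below WT beyond counting error. T makes up 25.1% of the region and 25.8% of the rest of 25S. The share also depends on peaks elsewhere. Domain II held 14.1% of 25S hits in Get4-HTP 1, 43.6% in Get4-HTP 2 and 18.5% in WT, and domain VI held 43.1% in Get4-HTP 1, 9.12% in Get4-HTP 2 and 27.1% in WT.

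Per 1000000 mapped reads, the region was lower in both Get4-HTP libraries by a wide margin. It had 64580 hits in Get4-HTP 1, 32735 in Get4-HTP 2 and 346353 in WT, which gives ratios to WT of 0.186 (Get4-HTP 1) and 0.0945 (Get4-HTP 2). Reads on all rRNA were also a smaller part of the mapped reads in Get4-HTP, with 30541 in Get4-HTP 1, 30264 in Get4-HTP 2 and 13924 in WT. The paper reports tRNA sequences enriched with Get4-HTP, which it regards as likely non-specific. Among the other RNA classes it reports a larger proportion of rRNA with Get4-HTP than in the wild type. Mapped reads include tRNA, so values per mapped read are not that comparison. Per rRNA read, the ratio of the region to WT was 0.486 (Get4-HTP 1) and 0.377 (Get4-HTP 2), with a mean of 0.431, so the direction was kept. These rRNA reads include those of the h46/h47 stretch. Including that stretch also lowered the mean ratio of the region's share of 25S hits, from 0.698 to 0.368.

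**Figure D1:**
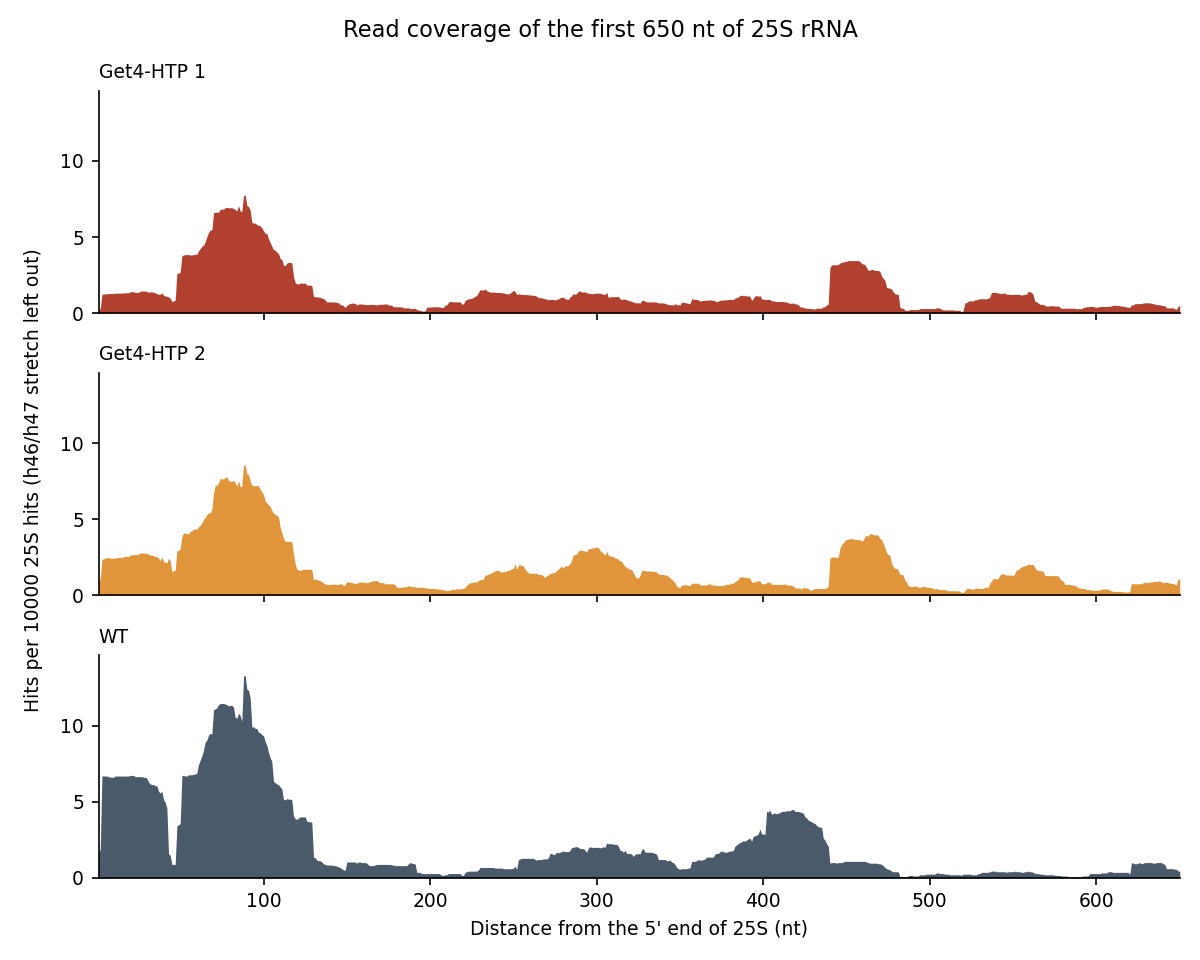
Hits at each of the 650 nucleotides, per 10000 hits of 25S outside the h46/h47 stretch, against the distance from the 5′ end of 25S in nucleotides, for Get4-HTP 1 (top), Get4-HTP 2 (middle) and WT (bottom). All 3 libraries peak at nucleotide 88 or 89, at 7.75 in Get4-HTP 1, 8.58 in Get4-HTP 2 and 13.3 in WT, the block that starts at nucleotide 440 stands out in both Get4-HTP libraries, and the blocks at nucleotides 3 to 42 and 394 to about 430 stand out in WT.

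The outline of the coverage had a common maximum and 3 blocks that differed between the strains. The highest nucleotide was 89 in Get4-HTP 1 with 337 hits, 88 in Get4-HTP 2 with 224 hits and 89 in WT with 332 hits. The median nucleotide had 39 hits in Get4-HTP 1, 30 in Get4-HTP 2 and 26 in WT. No nucleotide had fewer than 2 hits in Get4-HTP 1, 5 in Get4-HTP 2 and 2 in WT, so coverage was thin over much of the region and ratios there rest on few reads.

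To locate differences, 25S was cut from nucleotide 1 into bins of 50 nucleotides. The 3 bins that overlap the h46/h47 stretch were left out, and the share of a bin was taken over the hits of the remaining 65 bins, a smaller sum than the one behind the share of the whole region. A bin was counted as higher or lower where its share differed from WT by at least 1.5-fold in the same direction in both Get4-HTP libraries. Of the 13 bins of the region, 4 were higher, against a background of 12.3% over all 65 bins, and 4 of the 52 bins in the rest of 25S. In the lower direction it was 3 of the 13 bins, against a background of 9.23%, with 3 of the 52 in the rest. The region thus held 4 of the 8 higher and 3 of the 6 lower bins of 25S in 19.5% of its length. Per 1000000 mapped reads 0 of the 13 bins were higher, where the background was 0%, and 9 of them were lower, where it was 92.3%. The 4 bins that were not lower on that scale are those counted as higher by share. When only the h46/h47 stretch itself was left out of the sum, an alternative chosen after seeing the data, 4 of the 13 bins were higher and 4 were lower, where 12.3% of all bins were higher and 15.4% lower. Without Get4-HTP 2 the number of lower bins by share was 7, and with bins of 100 nucleotides it was 1 higher and 0 lower.

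The higher bins lay in 2 parts of the region. Bin 451 to 500 had 3756 hits in Get4-HTP 1, 3081 in Get4-HTP 2 and 737 in WT, with share ratios to WT of 2.84 (Get4-HTP 1) and 4.49 (Get4-HTP 2). The next bin, 501 to 550, had 1593 hits in Get4-HTP 1, 842 in Get4-HTP 2 and 373 in WT, with ratios of 2.33 (Get4-HTP 1) and 2.38 (Get4-HTP 2). Bin 551 to 600 had 1368 hits in Get4-HTP 1, 1509 in Get4-HTP 2 and 281 in WT, with ratios of 2.59 (Get4-HTP 1) and 5.40 (Get4-HTP 2). Earlier results of these data had already named a bin at nearly the same nucleotides as bin 551 to 600. These bins are adjacent and fall within ES7.

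Bin 201 to 250 lies apart from them and had 2172 hits in Get4-HTP 1, 1224 in Get4-HTP 2 and 560 in WT, with ratios of 2.16 (Get4-HTP 1) and 2.35 (Get4-HTP 2). The WT values are small in all of these bins. From 5′ to 3′, Get4-HTP 1 had 79, 132, 30 and 53 substitutions in these 4 bins, Get4-HTP 2 had 44, 112, 14 and 53, and WT had 15, 27, 9 and 11. Bin 501 to 550 held 2.56% of the region's substitutions in Get4-HTP 1 (1.80% to 3.63%, Wilson 95% interval), 1.53% in Get4-HTP 2 (0.916% to 2.56%) and 0.861% in WT (0.454% to 1.63%). Its interval in Get4-HTP 2 overlapped that of WT. For bin 551 to 600 the values were 4.52% in Get4-HTP 1 (3.47% to 5.86%), 5.81% in Get4-HTP 2 (4.47% to 7.52%) and 1.053% in WT (0.589% to 1.88%), with both Get4-HTP intervals above that of WT. The same held for bins 201 to 250 and 451 to 500. These intervals count the same reads whose hits selected the bins, so they are no separate support and cover counting error only.

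The lower bins were the first of the region and a pair that holds the WT block from nucleotide 394. The second bin of this pair also takes in the start of ES7 and of the block at nucleotide 440. Bin 1 to 50 had 2862 hits in Get4-HTP 1, 3195 in Get4-HTP 2 and 6858 in WT, with ratios of 0.245 (Get4-HTP 1) and 0.523 (Get4-HTP 2). Bin 401 to 450 had 2515 hits in Get4-HTP 1, 1445 in Get4-HTP 2 and 4068 in WT, with ratios of 0.362 (Get4-HTP 1) and 0.402 (Get4-HTP 2). Bin 351 to 400 had 1981 hits in Get4-HTP 1, 1079 in Get4-HTP 2 and 2183 in WT, with ratios of 0.531 (Get4-HTP 1) and 0.559 (Get4-HTP 2). By substitutions, bin 351 to 400 held 4.01% of the region in Get4-HTP 1 (3.03% to 5.29%, Wilson 95% interval), 2.85% in Get4-HTP 2 (1.95% to 4.14%) and 4.11% in WT (3.07% to 5.50%), so that both Get4-HTP intervals overlapped that of WT. In the other lower bins both Get4-HTP intervals lay below that of WT, again counted on the reads that selected the bins. With substitutions in place of hits, 2 bins were lower. The tallest bin, 51 to 100, was not counted in either direction, with 12450 hits in Get4-HTP 1, 8318 in Get4-HTP 2 and 12128 in WT and ratios of 0.593 (Get4-HTP 1) and 0.766 (Get4-HTP 2). With only the h46/h47 stretch left out of the sum it was the fourth lower bin, with ratios of 0.591 (Get4-HTP 1) and 0.656 (Get4-HTP 2).

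**Figure D2:**
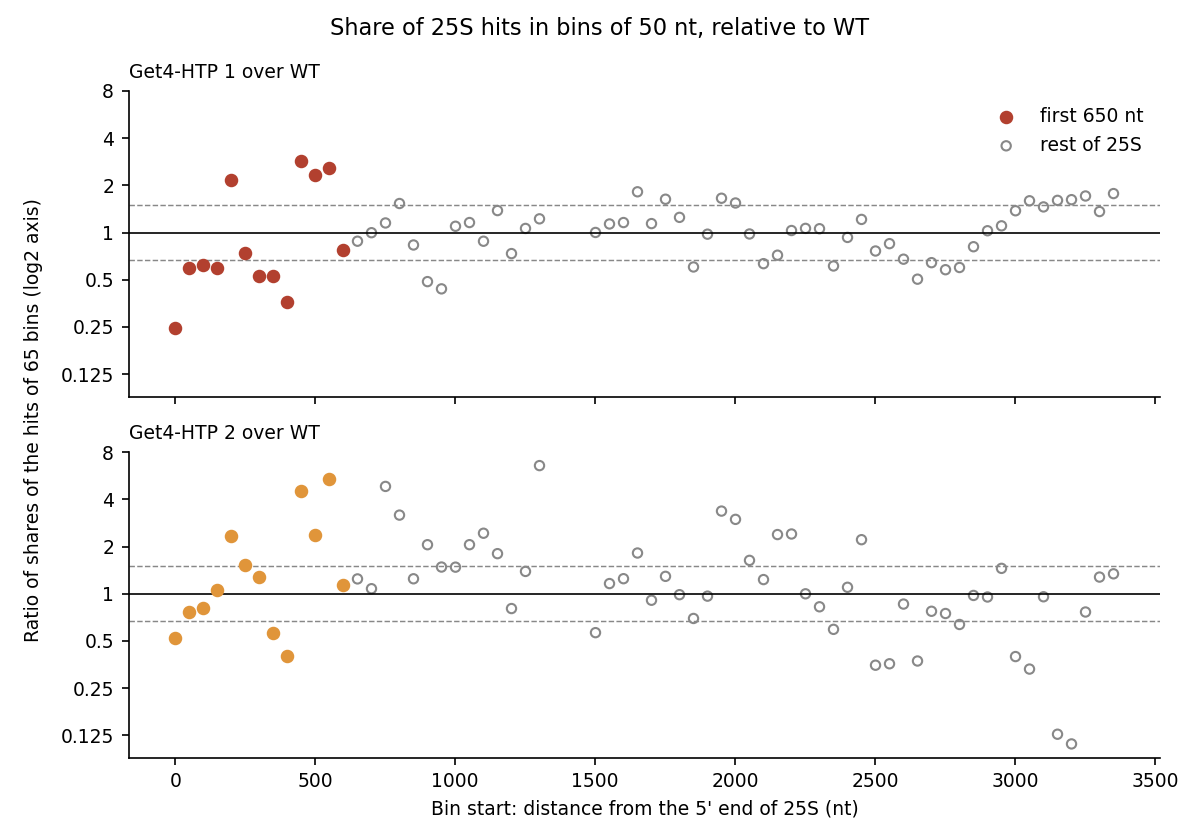
Ratio of the share of the hits of 65 bins of 25S to that of WT (log2 axis) for bins of 50 nucleotides, against the start of the bin as distance from the 5′ end of 25S in nucleotides, for Get4-HTP 1 (top) and Get4-HTP 2 (bottom), with filled points for the 13 bins of the first 650 nucleotides, open points for the other 52 bins and dashed lines at 1.5-fold. In Get4-HTP 1 the region holds both the lowest ratio (0.245) and the highest (2.84) of all 65 bins.

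The ratios of the 13 bins spread from 0.245 to 2.84 in Get4-HTP 1 with a median of 0.620, and from 0.402 to 5.40 in Get4-HTP 2 with a median of 1.14. For the other 52 bins the range was 0.437 to 1.82 in Get4-HTP 1 (median 1.06), while Get4-HTP 2 ranged from 0.110 to 6.56 (median 1.13). In Get4-HTP 1, which has the run code of WT, 6 bins of the region lay outside the range of the rest, with the 4 higher bins above it and bins 1 to 50 and 401 to 450 below it. In Get4-HTP 2 the ratios of the region lay within the range of the rest.

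The libraries were also set against each other over the 13 bins by log2 share of hits, as a description, since neighboring bins share reads and base composition. In the region, Pearson's r was 0.896 and Spearman's rho 0.841 between the Get4-HTP libraries. For Get4-HTP 1 with WT, r was 0.704 and rho 0.637, and for Get4-HTP 2 with WT they were 0.697 and 0.599. Over the other 52 bins, r was 0.605 and rho 0.731 between the Get4-HTP libraries. Get4-HTP 1 with WT had r = 0.930 and rho = 0.903 there, and Get4-HTP 2 with WT had r = 0.669 and rho = 0.699. The Get4-HTP pair was thus lowest by r but not by rho, and Get4-HTP 1 with WT was highest by both. In the first 650 nucleotides the Get4-HTP libraries were more alike than either was to WT, whereas over the other 52 bins Get4-HTP 1 was most like WT. What sets these orders was not tested.

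The ES7 part, taken approximately as the 185 nucleotides that end at nucleotide 620, and the 5′ part before it went in opposite directions. ES7 had 8742 hits in Get4-HTP 1, 6490 in Get4-HTP 2 and 2076 in WT. It held 2.01% of 25S hits in Get4-HTP 1, 2.49% in Get4-HTP 2 and 0.832% in WT, with ratios to WT of 2.42 (Get4-HTP 1) and 2.99 (Get4-HTP 2). Of the region's substitutions, ES7 held 22.3% in Get4-HTP 1 (20.04% to 24.8%, Wilson 95% interval), 21.5% in Get4-HTP 2 (18.9% to 24.2%) and 5.65% in WT (4.40% to 7.21%). The Get4-HTP libraries were close to each other here, with ratios to WT of 3.96 (Get4-HTP 1) and 3.80 (Get4-HTP 2).

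The 5′ part had 30290 hits in Get4-HTP 1, 23417 in Get4-HTP 2 and 34578 in WT. It held 6.97% of 25S hits in Get4-HTP 1, 8.97% in Get4-HTP 2 and 13.9% in WT, with ratios of 0.503 (Get4-HTP 1) and 0.647 (Get4-HTP 2). Its share of the region's substitutions was 75.4% in Get4-HTP 1, 76.1% in Get4-HTP 2 and 92.1% in WT. ES7 has 27.6% T and the 5′ part 23.9%. Per 1000000 mapped reads, ES7 was lower than WT in both libraries as well, with ratios of 0.737 (Get4-HTP 1) and 0.360 (Get4-HTP 2), but less so than the 5′ part, with ratios of 0.153 (Get4-HTP 1) and 0.0781 (Get4-HTP 2). The last 30 nucleotides of the region were thinly covered, with 684 hits in Get4-HTP 1, 666 in Get4-HTP 2 and 634 in WT.

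The clearest boundary lay at nucleotide 440. Hits there rose by 104 over the nucleotide before it in Get4-HTP 1 and by 47 in Get4-HTP 2, the largest single-nucleotide rise of the region in both libraries. In WT hits fell by 28 at the same nucleotide. The block that begins there ran from 440 to 477 in Get4-HTP 1, with up to 150 hits, and from 440 to 480 in Get4-HTP 2, with up to 106 hits. In WT no nucleotide from 440 to 480 had more than 27 hits, and the block just before it, 42 nucleotides from nucleotide 394, had up to 112. In that WT block Get4-HTP 1 had at most 50 hits and Get4-HTP 2 at most 25. The peaks of the strains thus abutted without sharing a maximum.

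Within the region's substitutions, nucleotides 440 to 480 held 13.4% in Get4-HTP 1 (11.6% to 15.5%, Wilson 95% interval), 11.8% in Get4-HTP 2 (9.89% to 14.1%) and 2.58% in WT (1.78% to 3.73%). The WT block from nucleotide 394 held 2.90% in Get4-HTP 1 (2.08% to 4.02%), 2.19% in Get4-HTP 2 (1.42% to 3.36%) and 11.6% in WT (9.78% to 13.7%). In both blocks the intervals of the Get4-HTP libraries overlapped each other and not that of WT. Each block was delimited by hits in the strain where it was high. The intervals thus describe the reads that selected the blocks and are no separate support. Per 1000000 mapped reads, nucleotides 440 to 480 had 255 substitutions in Get4-HTP 1, 116 in Get4-HTP 2 and 251 in WT, and the WT block had 55.3 in Get4-HTP 1, 21.4 in Get4-HTP 2 and 1124 in WT. The block at 440 was therefore larger in Get4-HTP as a share of the region's reads, while per mapped read Get4-HTP 1 was close to WT and Get4-HTP 2 was below it.

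The block at nucleotides 3 to 44 separated the strains less evenly. It held 6.05% of the region's substitutions in Get4-HTP 1 (4.83% to 7.57%, Wilson 95% interval), 9.86% in Get4-HTP 2 (8.09% to 12.0%) and 16.3% in WT (14.2% to 18.6%). The 3 intervals did not overlap, and both Get4-HTP libraries lay below WT. The stretch passed 20% of the maximum in Get4-HTP 2 and, up to nucleotide 42, in WT, but not in Get4-HTP 1. Its intervals thus describe reads that selected it and are no separate support. At nucleotide 1 there were 10 hits in Get4-HTP 1, 23 in Get4-HTP 2 and 41 in WT, and at nucleotide 3 they were 53 in Get4-HTP 1, 62 in Get4-HTP 2 and 167 in WT. The last listed nucleotide of the internal transcribed spacer ITS2 had as many hits as nucleotide 1 in every library. The nucleotide before that had 9 hits in Get4-HTP 1, 18 in Get4-HTP 2 and 32 in WT. At 4 nucleotides before the last there were 2 hits in Get4-HTP 1, 8 in Get4-HTP 2 and 14 in WT, and at 10 nucleotides before it there was 1 hit in each Get4-HTP library, against 7 in WT. A part of the reads thus ran some nucleotides into the spacer in all 3 libraries, and among the first 4 nucleotides of 25S the largest rise in hits lay at nucleotide 3. At nucleotide 43 hits fell by 2 in Get4-HTP 1 and rose by 8 in Get4-HTP 2, against a fall by 75 in WT, where the block ended.

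The common block at nucleotides 48 to 129 was alike in outline. Of the 10 largest single-nucleotide rises in each library, 5 were the same in all 3 libraries, at nucleotides 3, 48, 51, 70 and 88. Of the 10 largest falls, 3 were shared, at nucleotides 90, 118 and 130. Nucleotides 48 to 129 held 40.6% of the region's substitutions in Get4-HTP 1 (37.8% to 43.4%, Wilson 95% interval), 33.8% in Get4-HTP 2 (30.8% to 36.98%) and 43.3% in WT (40.3% to 46.3%). Here the intervals of Get4-HTP 1 and WT overlapped, and that of Get4-HTP 2 lay below both.

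Nucleotides 277 to 320 passed 20% of the maximum in Get4-HTP 2 only, with up to 83 hits there, 63 in Get4-HTP 1 and 57 in WT. They held 6.05% of the region's substitutions in Get4-HTP 1 (4.83% to 7.57%, Wilson 95% interval), 12.4% in Get4-HTP 2 (10.4% to 14.7%) and 6.22% in WT (4.91% to 7.85%). This difference set Get4-HTP 2 apart from the other Get4-HTP library as well as from WT. The stretch was delimited in Get4-HTP 2, so its intervals describe the reads that selected it. Short runs at nucleotides 249 to 257 and 554 to 563 also passed the limit in Get4-HTP 2 only, and nucleotide 233 in Get4-HTP 1 only. The limit is relative to the highest value of each library. Hits in these runs reached 65 and 62 in Get4-HTP 1 and 54 in each run in Get4-HTP 2, so passing it does not set Get4-HTP 2 apart there.

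**Figure D3:**
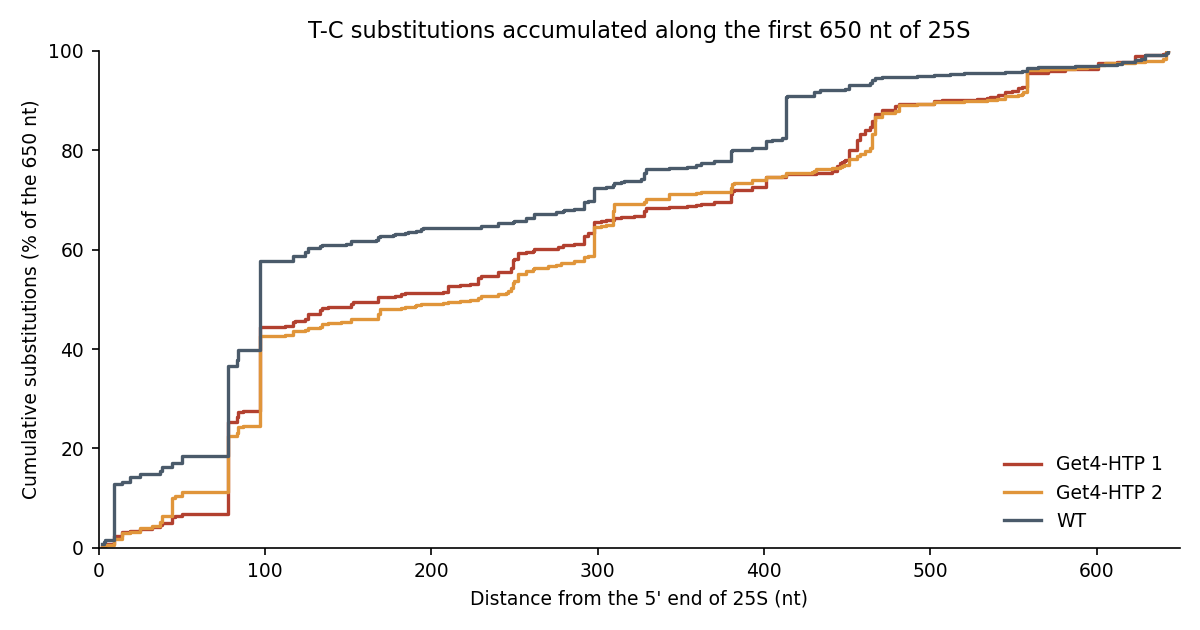
Substitutions summed from the 5′ end, as a percentage of all substitutions of the 650 nucleotides, against the distance from the 5′ end of 25S in nucleotides, with 1 line for each library. The steps at T78 and T97 are common to all 3 lines, the steps at T9 (11.4% in WT) and T413 (8.33% in WT) belong to the WT line, and the Get4-HTP lines climb between nucleotides 440 and 480 and at T558.

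Substitutions were concentrated at few T positions. Of the 163 T positions, 129 had a substitution in Get4-HTP 1, 127 in Get4-HTP 2 and 108 in WT, and 84 had one in all 3 libraries. The 5 leading positions held 42.5% of the region's substitutions in Get4-HTP 1, 43.0% in Get4-HTP 2 and 58.2% in WT. The 5 leading positions of the rest of 25S, which has 693 T positions, held 28.3% of the substitutions there in Get4-HTP 1, 27.7% in Get4-HTP 2 and 23.5% in WT. In the region 10 positions in Get4-HTP 1, 8 in Get4-HTP 2 and 4 in WT were enough to hold 50%. In the rest of 25S it took 30 in Get4-HTP 1, 31 in Get4-HTP 2 and 38 in WT. Because the rest has more T positions, these values do not directly compare its concentration with that of the region. WT was the most concentrated library in the region and the least in the rest of 25S.

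The 5 leading positions were T78, T97, T558, T298 and T456 in Get4-HTP 1. In Get4-HTP 2 they were T97, T78, T298, T558 and T44, and in WT T78, T97, T9, T413 and T298. T78, T97 and T298 were thus common to all 3 lists, and T558 to both Get4-HTP libraries. The lists of WT differed from those of Get4-HTP by T9 and T413.

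T78 and T97 together carried 35.5% of the region's substitutions in Get4-HTP 1 (32.8% to 38.2%, Wilson 95% interval), 29.2% in Get4-HTP 2 (26.4% to 32.3%) and 35.9% in WT (33.0% to 38.8%). T78 was substituted in 217 of 302 reads in Get4-HTP 1 (71.9%, Wilson 95% interval of 66.5% to 76.6%), in 102 of 204 in Get4-HTP 2 (50%, 43.2% to 56.8%) and in 188 of 284 in WT (66.2%, 60.5% to 71.4%). T97 was substituted in 199 of 251 reads in Get4-HTP 1 (79.3%, 73.8% to 83.8%), in 165 of 188 in Get4-HTP 2 (87.8%, 82.3% to 91.7%) and in 187 of 239 in WT (78.2%, 72.6% to 83.0%). At both positions Get4-HTP 1 and WT overlapped, while the interval of Get4-HTP 2 lay below that of WT at T78 and overlapped only its upper end at T97. The Get4-HTP means of 60.9% ± 15.5 and 83.5% ± 5.998 differed from WT by less than the SD between the libraries.

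Because each read carried 1 substitution, reads substituted at T97 can be separated from those substituted at T78, 19 nucleotides away. Of the reads over T78, 85 were not substituted there in Get4-HTP 1, 102 in Get4-HTP 2 and 96 in WT. At least 114 of the reads substituted at T97 in Get4-HTP 1, 63 in Get4-HTP 2 and 91 in WT therefore did not reach T78. Likewise at least 165 of the reads substituted at T78 in Get4-HTP 1, 79 in Get4-HTP 2 and 136 in WT did not reach T97. The block was thus built from at least 2 sets of fragments in every library, 1 around each T.

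The T positions between T78 and T97 were seldom substituted at similar depth. Nearly every read carried only 1 substitution, so a read substituted at T78 or T97 could not also count at them. Their low shares are therefore not independent of the high shares beside them. T84 was substituted in 13 of 292 reads in Get4-HTP 1 (4.45%), in 12 of 188 in Get4-HTP 2 (6.38%) and in 21 of 262 in WT (8.02%). At T83 the share was 3.72% in Get4-HTP 1, 2.07% in Get4-HTP 2 and 4.56% in WT. These shares were far below those of T78 and T97 in every library. T87 was substituted in 2 of 290 reads in Get4-HTP 1, 2 of 187 in Get4-HTP 2 and 0 of 257 in WT. T79, next to T78, was substituted in 1 of 301 reads in Get4-HTP 1, 1 of 197 in Get4-HTP 2 and 0 of 282 in WT. For WT a count of 0 among 257 reads allows up to 1.17% by the limit of 3 counts, and the Wilson interval reaches 1.47%. T32 in the first block was substituted in 5 of 61 reads in Get4-HTP 1, 4 of 69 in Get4-HTP 2 and 0 of 154 in WT. Upstream of T78 lies the longest stretch of the region without T, 27 nucleotides from 51 to 77, in which hits nevertheless reached 301 in Get4-HTP 1, 202 in Get4-HTP 2 and 286 in WT. Coverage alone therefore does not show where in this block the substitutions lie.

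Among the named T positions, T9 and T413 differed most between the strains. At T9, 21 of 56 reads in Get4-HTP 1 (37.5%, Wilson 95% interval of 26.0% to 50.6%), 12 of 64 in Get4-HTP 2 (18.8%, 11.1% to 29.97%) and 119 of 165 in WT (72.1%, 64.8% to 78.4%) were substituted. At T413 it was 6 of 32 reads in Get4-HTP 1 (18.8%, 8.89% to 35.3%), 5 of 20 in Get4-HTP 2 (25%, 11.2% to 46.9%) and 87 of 109 in WT (79.8%, 71.3% to 86.3%). At both positions the intervals of the Get4-HTP libraries lay below that of WT and overlapped each other. Both were among the 5 leading T positions in WT and in neither Get4-HTP library. The intervals thus describe the WT reads that selected these positions and are no separate support. In both Get4-HTP libraries the reads over T9 and T413 were also fewer than the minimum of hits used to rank T positions. The Get4-HTP means were 28.1% ± 13.3 at T9 and 21.9% ± 4.42 at T413. The WT blocks in which these positions lie were thus higher in hits and more often substituted at a single T.

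The blocks that were higher in Get4-HTP did not have such a T in common. In nucleotides 440 to 480, T456 was substituted in 25 of 150 reads in Get4-HTP 1 (16.7%, Wilson 95% interval of 11.6% to 23.4%), in 5 of 96 in Get4-HTP 2 (5.21%, 2.24% to 11.6%) and in 1 of 27 in WT (3.70%, 0.657% to 18.3%). T467, chosen after its values had been seen because it led this block in Get4-HTP 2, was substituted in 16 of 122 reads in Get4-HTP 1, 32 of 104 in Get4-HTP 2 and 4 of 24 in WT. The leading T of the block held 25 of its 157 substitutions in Get4-HTP 1 and, for Get4-HTP 2, 32 of 108, while T413 held 87 of the 121 substitutions of its block in WT. Substitutions from 440 to 480 were therefore spread over several T positions.

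T558 behaved differently, with few WT reads but a like share among them. It was substituted in 32 of 54 reads in Get4-HTP 1 (59.3%, Wilson 95% interval of 45.97% to 71.3%), in 40 of 52 in Get4-HTP 2 (76.9%, 63.9% to 86.3%) and in 7 of 10 in WT (70.0%, 39.7% to 89.2%). The 3 intervals overlapped. As a part of the region's substitutions, T558 made up 2.73% in Get4-HTP 1 (1.94% to 3.83%), 4.38% in Get4-HTP 2 (3.23% to 5.91%) and 0.670% in WT (0.325% to 1.38%). T558 was thus a larger part of the substitutions in Get4-HTP. It was named because it was among the leading T positions in both Get4-HTP libraries, and it was not among them in WT. The intervals of this part thus describe the Get4-HTP reads that selected T558 and are no separate support. The share of substituted reads at T558 could not be distinguished from WT with 10 WT reads.

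T298 and T44 did not separate both Get4-HTP libraries from WT. T298 was substituted in 25 of 55 reads in Get4-HTP 1 (45.5%), in 53 of 81 in Get4-HTP 2 (65.4%) and in 27 of 50 in WT (54.0%). At T44 it was 14 of 43 reads in Get4-HTP 1 (32.6%), 33 of 60 in Get4-HTP 2 (55.0%) and 10 of 37 in WT (27.0%). WT lay between the Get4-HTP libraries at T298. At T44 both were above WT, with intervals of 20.5% to 47.5% and 42.5% to 66.9% that overlapped the 15.4% to 43.0% of WT.

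**Figure D4:**
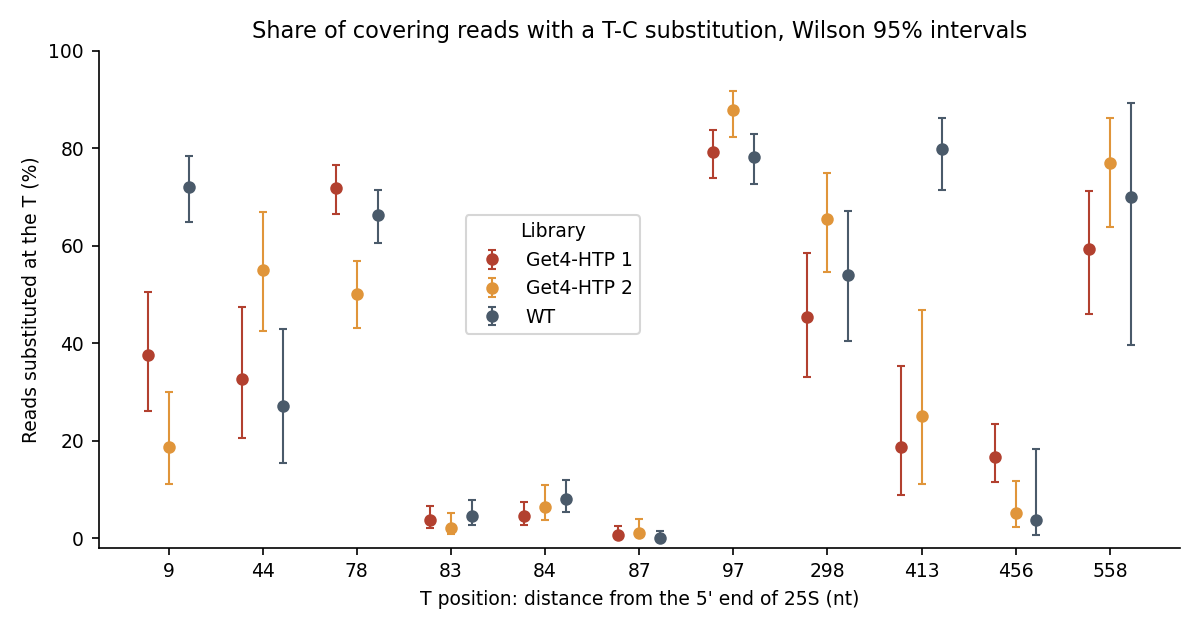
Percentage of the reads over a T that carried a T-C substitution there, for the 11 named T positions by their distance from the 5′ end of 25S in nucleotides, with points from left to right for Get4-HTP 1, Get4-HTP 2 and WT and bars for Wilson 95% intervals. WT stands far above both Get4-HTP libraries at T9 (72.1%) and T413 (79.8%), which were among the leading T positions in WT only. All 3 libraries are high at T78 and T97 and low at T83, T84 and T87.

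The base next to a T was described over the 85 T positions of the region with enough hits in every library. T positions preceded by T had a mean share of substituted reads of 7.81% in Get4-HTP 1, 9.45% in Get4-HTP 2 and 7.01% in WT (25 positions). Those preceded by A had 15.6% in Get4-HTP 1, 15.0% in Get4-HTP 2 and 15.2% in WT (18 positions). The means rest largely on the few positions with high shares. The median after A was 5.50% in Get4-HTP 1, 8.999% in Get4-HTP 2 and 8.02% in WT, and after T it was 6.67% in Get4-HTP 1, 2.22% in Get4-HTP 2 and 4.55% in WT. The medians thus kept no common order across libraries.

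A645 near the end of the region carries the base methylation m1A, which is made by Rrp8. It had 15 hits in Get4-HTP 1, 21 in Get4-HTP 2 and 15 in WT, within ranges of 11 to 21 hits in Get4-HTP 1, 18 to 28 in Get4-HTP 2 and 11 to 22 in WT over the 4 nucleotides on either side. Coverage at the modified base was thus within that of its neighbors in every library, at a depth too low to show a small dip.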

How the data were processed

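PAR-CRAC pileups of Get4-HTP (2 libraries) and WT (1 library) were used, grouped by the sample labels. Only Get4-HTP 2 has a number in its label, and the others were numbered 1. According to the methods, reads were trimmed with Flexbar, collapsed by UMI, mapped with at most 1 mismatch and kept only with a single T-C mutation. The submitters' processing notes name Bowtie2 2.3.4.2, whereas the file headers name a folder of Bowtie1 output. The genome build and the pyCRAC version are not given in the sources used here, so no chromosome coordinates are given. The deposited values are raw counts of reads (hits), substitutions and deletions per nucleotide, written by the authors with pyPileup and left without normalization. Reads without a substitution were removed by the authors, so a share of substituted reads refers to reads with a substitution somewhere. How reads from RDN25-1 and RDN25-2, the annotated 25S copies, were assigned is not stated. The number of per-sample columns without a matching sample was 0.

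RDN25-2 rows were sorted and numbered from 1. The length of 3396 matches RefSeq. Nucleotides 1391 to 1454 (h46/h47) were left out of shares of 25S. Shares and correlations of bins were taken over the 65 bins that do not overlap them, which leaves out 1351 to 1500. The 5′ part is nucleotides 1 to 435, ES7 436 to 620 and the 3′ end 621 to 650. Domain II was taken as 651 to 1390 and domain VI as 2991 to 3396. All these limits are approximate and were taken from general knowledge. Bins of 50 nucleotides received a pseudocount of 1% of the mean bin, and a 1.5-fold limit was used. T positions were ranked at 100 hits or more, and neighboring bases were described at 20 hits or more. Wilson 95% intervals and the limit of 3 counts for a count of 0 cover counting error only. With 1 WT library no test was run. Named nucleotides were the highest of each library, runs above 20% of the maximum, the 5 T positions with most substitutions in each library and the 5 with the highest shares at 100 hits, T positions without substitution at 100 hits, nucleotides 97 and 413, and A645. The region, the limits and this rule were chosen with earlier results of these data known. Those results had named nucleotides 97 and 413 and a bin close to nucleotides 551 to 600. The bin count was tested on simulated data. Alternatives concerned the quantity counted, the denominator, the fold, the bin width, the pseudocount, low bins, the run limit, the minimum of hits, the region end and each Get4-HTP library alone. Python 3.11.15, numpy 2.4.6, scipy 1.17.1, pandas 2.3.3 and matplotlib 3.10.9 were used.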

Additional observations from a re-analysis of the deposited data

How the results depend on the processing

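The direction of the share ratio was kept under all alternatives run, but its size depended on the denominator. With the h46/h47 stretch included, the mean ratio of Get4-HTP to WT was 0.368 in place of 0.698. Per rRNA read, with the h46/h47 stretch included, in place of per mapped read, the mean ratio of hits was 0.431 in place of 0.140. The number of higher bins was 4, and it was 0 per 1000000 mapped reads, 7 with bins of 25 nucleotides and 1 with bins of 100. The number of lower bins was 3, and it was 9 per 1000000 mapped reads, 1 with a 2-fold limit and 0 with bins of 100. With each Get4-HTP library left out in turn, the number of lower bins was 3 to 7, with 7 when Get4-HTP 2 was left out. When shares were taken within the first 650 nucleotides, an alternative chosen after seeing the data, 4 bins were higher and 2 lower. When only the h46/h47 stretch was left out of the sum, likewise chosen after seeing the data, 4 were higher and 4 lower. With substitutions in place of hits 4 were higher and 2 lower. Stretches above the limit numbered 3 for Get4-HTP 1, 7 for Get4-HTP 2 and 3 for WT. At 10% of the maximum there were 8 for Get4-HTP 1 and 13 for Get4-HTP 2, and at 50% there was 1 in each of these. T positions that could be ranked numbered 6, and 23 with at least 50 hits and 1 with at least 200. The leading 1, 3 and 10 T positions held 18.5%, 38.2% and 51.5% of the substitutions of Get4-HTP 1, 18.1%, 35.05% and 54.9% in Get4-HTP 2, and 17.99%, 47.3% and 66.5% in WT. Depth limits each ratio through the library with the fewest reads there, by substitutions WT in the 4 higher bins and a Get4-HTP library in the 3 lower bins.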
